A study of Homo sapiens with 12 samples.

Results

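The genes described here are 32 genes of the integrated stress response that are linked to the transcription factor ATF4, out of 41878 gene rows counted in HEK293T cells. They were chosen by name, as a published-knowledge list of ATF4, its partner factors and its targets, without amino acid transporters or tRNA synthetases. The choice was made with earlier results of these data known. Each symbol matched 1 row, and all 32 passed the filter on low counts, so every member was tested. HEK293T is a human embryonic kidney line that is easily transfected and that carries the SV40 large T antigen. The cells of all 4 groups received 1 µg of plasmid by lipid-based transfection and were grown in medium with 10% fetal bovine serum. The groups were vector control kept in serum (vector fed), vector control held without serum for 4 h (vector starved), TRPML3 plasmid kept in serum (TRPML3 fed) and TRPML3 plasmid held without serum for 4 h (TRPML3 starved), with 3 biological replicates each. TRPML3, encoded by MCOLN3, is a cation channel of endosomes and lysosomes. The promoter of the plasmid and the share of cells that took it up are not given in the sources used here, so in this bulk RNA a change in more cells and a change per cell cannot be told apart.

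The integrated stress response starts when a kinase phosphorylates the translation factor eIF2 in response to amino acid shortage, misfolded protein in the endoplasmic reticulum, heme shortage or double-stranded RNA. General translation then falls while the ATF4 mRNA is translated more, and ATF4 with its C/EBP partners activates genes for amino acid synthesis, redox balance, mTORC1 restraint and a feedback phosphatase subunit that removes the phosphate from eIF2. ATF4 is thus controlled largely at translation, which RNA levels do not show.

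Library totals ran from 33101540 to 43700547 counts, so 3 counts, the detection floor used here, were at most 0.0978 CPM, the usual depth-scaled count, here with the TMM factors of edgeR. MCOLN3 lay between 9.31 and 18.4 CPM in the 6 vector libraries and between 4929 and 58223 CPM in the 6 TRPML3 libraries, as labelled. Replicates 1, 2 and 3 had 6211, 4929 and 39972 CPM in TRPML3 fed and 41362, 58223 and 16896 CPM in TRPML3 starved libraries. The MCOLN3 level thus differed between serum states and replicates, and its part in the comparisons below was not tested. The share of counts from the mitochondrial genome followed the replicate number, with 2.81 to 4.40% in replicate 1 libraries, 1.05 to 2.52% in replicate 2 libraries and 4.83 to 5.70% in replicate 3 libraries. HEK293T-typical transcripts were present, with NEFM at a median of 119 CPM and VIM at 380.4 CPM. Of the markers of other cells, PTPRC was at 0 in 11 of 12 libraries and HBB in all 12, while the collagen gene COL3A1 had a median of 18.8 CPM. The 10 markers of other cells summed to between 25.8 and 49.3 CPM, with overlapping ranges in the 4 groups.

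ATF4 and C/EBP factors bind a composite DNA element, the C/EBP-ATF response element, for which the letters TGATGNAAN were searched on both strands of the promoter windows in RefSeq (GRCh38.p14), each from 250 bases before to 50 bases after a transcript start. Windows were found for 25 of the 32 members. At least 1 window held the letters in 6 of these 25 genes, against 4.45% of all 27305 genes and 3.61% of all 35116 windows in the table. The 6 matches are shown so that the letters can be compared between genes, with the 9 matching letters in capitals and 10 flanking bases on each side, read 5′ to 3′ on the strand that carries TGATG.

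ASNS: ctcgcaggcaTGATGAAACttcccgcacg
CHAC1: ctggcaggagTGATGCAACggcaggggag
CEBPG: gcgcggcgtcTGATGCAACctgccggcaa
PPP1R15B: ccgccccggcTGATGCAACctcacgctgc
JDP2: tagccggggcTGATGCAACccgtcccgcc
ATF3: aaggtcaggaTGATGGAAGgctgtcatat

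In GRCh38.p14 these stretches are chr7:97872458-97872486 (minus strand) for ASNS, chr15:40953251-40953279 (minus strand) for CHAC1, chr19:33374061-33374089 (plus strand) for CEBPG, chr1:204412026-204412054 (minus strand) for PPP1R15B, chr14:75427996-75428024 (plus strand) for JDP2 and chr1:212565206-212565234 (plus strand) for ATF3. The first letter of the element lay 68 bases before the start of ASNS, 42 before that of CEBPG and 16 before a start of JDP2. It lay 191 and 227 bases before the starts of ATF3 and PPP1R15B. CHAC1 carried the element opposite to the direction of the gene, with its first letter 202 and its last letter 210 bases before the start. The same 9 letters, TGATGCAAC, occurred in 4 of the 6 genes. A match is a description of letters and not evidence of binding, and the other 19 genes lack these letters in this window only.

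Levels between genes were compared per kilobase of exon (GENCODE 29 exon lengths), for the 31 members that have one. PSAT1, the aminotransferase of serine synthesis, had the highest median over the 12 libraries with 211 CPM per kb, followed by ASNS, the asparagine synthetase, with 182 CPM per kb. ATF4 itself followed with 125 CPM per kb, beside MTHFD2, a mitochondrial folate enzyme, with 121 CPM per kb, and the ranges of ATF4 and MTHFD2 over the libraries overlapped. DDIT3, which encodes the pro-apoptotic factor CHOP, had 29 CPM per kb. The stress-induced genes CHAC1, a glutathione-degrading enzyme, and TRIB3, a pseudokinase that inhibits ATF4 and AKT, were far lower with 6.11 and 3.53 CPM per kb. The lowest were JDP2, a bZIP repressor, with 0.297 CPM per kb and GDF15, a secreted stress cytokine, with 0.238 CPM per kb.

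**Figure D1:**
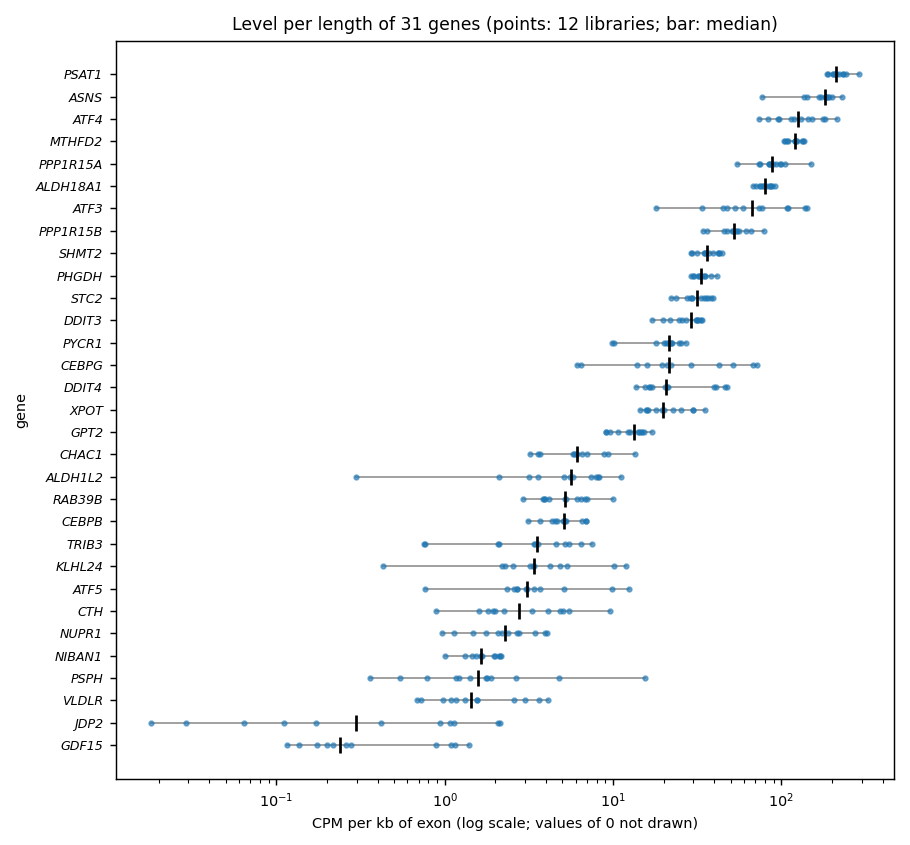
Level of 31 ATF4-linked genes in CPM per kilobase of exon (log axis), with 1 point per library and a bar at the median of the 12 libraries; a library listed at 0 is not drawn. Synthesis enzymes such as PSAT1 (211 CPM per kb) lead the list, and JDP2 and GDF15 (0.297 and 0.238 CPM per kb) close it.

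The members differed widely in how far they varied between libraries. The highest library exceeded the lowest by under 2-fold for 8 members, among them MTHFD2 (1.31-fold), ALDH18A1 of proline synthesis (1.35-fold) and PHGDH, the first enzyme of serine synthesis (1.42-fold). For 6 members the ratio passed 10-fold, with the serine phosphatase PSPH at 43.4-fold and ALDH1L2, a mitochondrial folate dehydrogenase, at 37.7-fold. A library was listed at 0 for 3 members, GDF15, JDP2 and SESN2. The row named SESN2 had 0 counts in TRPML3 fed replicate 1, which allows up to 0.072 CPM, although the 11 other libraries lay between 22.3 and 65.7 CPM. That row has an Ensembl identifier, ENSG00000285069, that is found neither in GENCODE 29 nor in the table of gene names, so its identity as SESN2 rests on the deposited file. Exons of 11 members overlap those of another annotated gene. For partners on the opposite strand, such as MARS for DDIT3 and DDIT4-AS1 for DDIT4, reads cannot be told apart where counting ignored strand. Partners on the same strand are AC079781.5 for ASNS (1985 bp), MYADML2 for PYCR1 (408 bp), AC022506.1 for DDIT3 (105 bp) and MIR4751 for ATF5 (74 bp). Strand does not separate reads of these pairs.

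**Figure D2:**
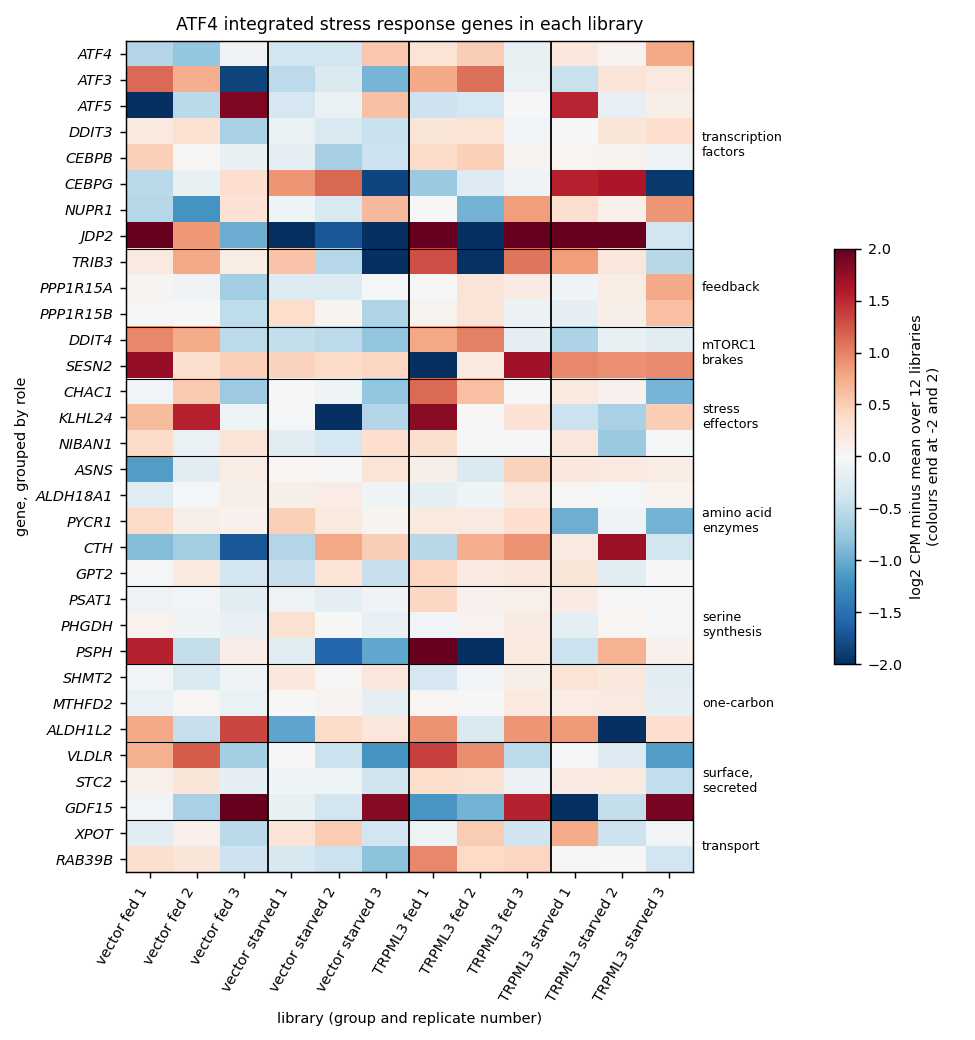
Heat map of the 32 genes (rows, grouped by role) in the 12 libraries (columns); colour is log2 CPM minus the gene's mean over the 12 libraries, ending at -2 and 2. Rows of enzymes such as MTHFD2 (1.31-fold between libraries) are pale, and those of PSPH (43.4-fold) and JDP2 are strongly coloured.

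To ask whether TRPML3 alters the response in fed cells, TRPML3 fed libraries were compared with vector fed libraries. No member reached the threshold of 0.05 for the adjusted p (edgeR's quasi-likelihood fit, Benjamini-Hochberg), where 0.0111% of the 18030 genes tested did. The share in edgeR was 2 genes, and 1 gene was called when MCOLN3, the gene on the plasmid, was left out. The DESeq2 Wald test also called 0 members, against 0.167% of the genes it gave an adjusted p. Most fitted values were nonetheless above 0, in 26 of 32 members against 48.9% of all genes, with a median log2 fold change of 0.18 for the members and -0.01 for all genes. At an unadjusted p under 0.05 there were 2 members, PSAT1 and CTH, or 6.25% of the list against 2.21% of all genes. The libraries of the groups did not overlap for 3 members, PSAT1, CTH and RAB39B, all higher with TRPML3, or 9.38% of the list against 3.22% of all genes in that direction, and for 0 lower members against 3.87%.

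ATF4 RNA was at 209, 185 and 299 CPM in vector fed replicates 1, 2 and 3 and at 382, 442 and 286 CPM in TRPML3 fed replicates 1, 2 and 3. The TRPML3 values were the higher ones in replicates 1 and 2, and replicate 3 of both groups lay between them, so the groups overlapped. The log2 fold change of ATF4 was 0.68 ± 0.31 (SE, edgeR, unadjusted p = 0.0507, adjusted p = 1). Without replicate 3 in all groups it was 1.07, with an adjusted p of 0.346 in edgeR, and without replicate 2 in all groups it was 0.40.

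PSAT1 had 445, 459.6 and 410.3 CPM in vector fed and 633, 506 and 510.0 CPM in TRPML3 fed libraries. Every TRPML3 library was above every vector library, by a small margin except for replicate 1. Its log2 fold change was 0.33 ± 0.13 (SE, edgeR, unadjusted p = 0.0258, adjusted p = 1). CTH, which makes cysteine from cystathionine, had 3.84, 4.34 and 2.15 CPM in vector fed and 4.78, 11.7 and 13.2 CPM in TRPML3 fed libraries. TRPML3 fed replicate 1 was barely above the vector libraries, and the log2 fold change of CTH was 1.52 ± 0.61 (SE, edgeR, unadjusted p = 0.0306, adjusted p = 1). RAB39B, a small GTPase of vesicle traffic, had 22.6, 21.5 and 13.6 CPM against 35.1, 24.0 and 24.5 CPM, with vector libraries again the lower ones.

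The other stress markers did not separate the fed groups. CHAC1 had 12.1, 18.2 and 7.60 CPM with vector and 27.8, 19.1 and 12.5 CPM with TRPML3. Each TRPML3 library was above the vector library of the same number, but the groups overlapped. TRIB3 was at 11.9, 17.9 and 11.6 CPM with vector and at 25.8, 2.63 and 22.2 CPM with TRPML3, where replicate 2 was the lowest of the 6. ASNS was lowest in vector fed replicate 1, with 340.3, 636 and 819 CPM against 804, 607 and 1017 CPM. PSPH had 13.2, 3.24 and 4.96 CPM with vector and 43.0, 0.99 and 5.18 CPM with TRPML3, where replicate 1 stood apart, and a log2 fold change of 1.20 ± 1.04 (SE). ATF5, another bZIP factor under translational control, was high in vector fed replicate 3 only, with 2.25, 6.94 and 36.8 CPM against 7.58, 7.92 and 10.0 CPM. SESN2 had 65.7, 24.4 and 27.2 CPM with vector and 0, 22.3 and 62.7 CPM with TRPML3, a spread wider than any difference between the fed groups. KLHL24, a ubiquitin ligase adaptor, had 46.3, 87.5 and 27.6 CPM with vector and 104, 29.6 and 36.3 CPM with TRPML3. In the fed comparison deviations of same-numbered libraries correlated at 0.11, 0.15 and 0.33 for replicates 1, 2 and 3. The values were similar between the starved groups (0.13, 0.09 and 0.32). With the replicate number as a block, 0 members were called in fed cells. There 5 had an unadjusted p under 0.05, namely ATF4, CHAC1, PSAT1, CTH and RAB39B, against 2.61% of all genes.

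**Figure D3:**
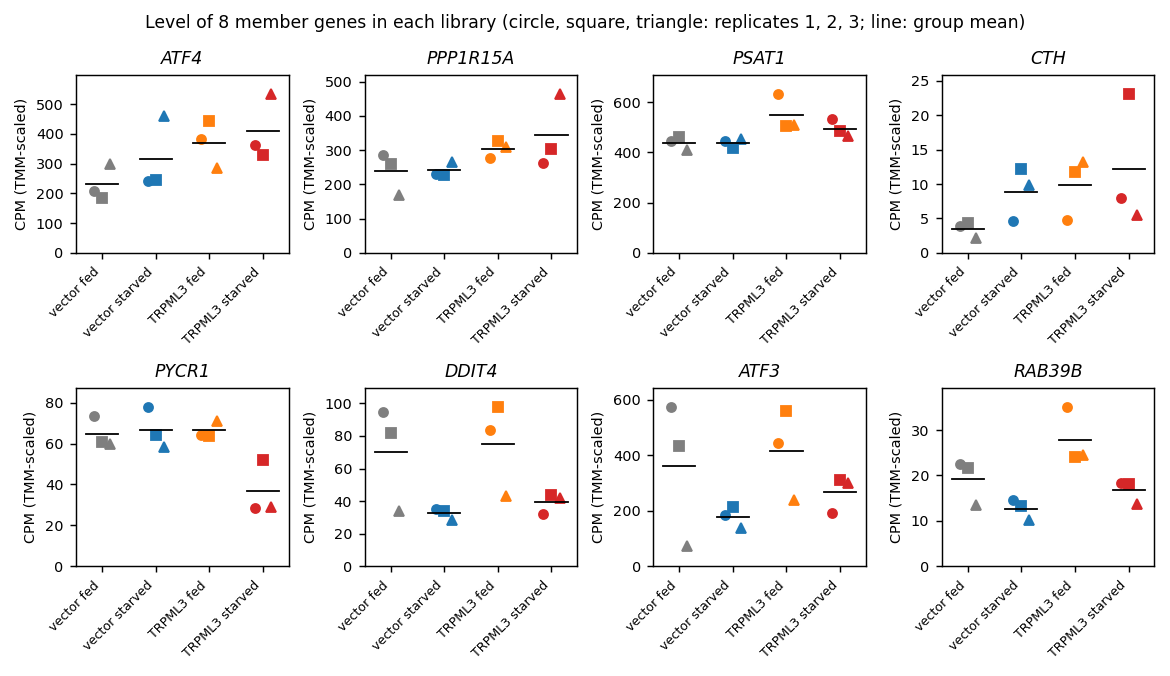
TMM-scaled CPM of 8 member genes in each library, on axes that start at 0; symbols mark replicates 1 (circle), 2 (square) and 3 (triangle), and lines the group means. PYCR1 is low in the TRPML3 starved libraries (28.5, 52.1 and 29.1 CPM), and DDIT4 is high in replicates 1 and 2 of the fed groups.

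In starved cells, TRPML3 libraries were compared with vector libraries in the same way. Again 0 members were called, against 0.00555% of all genes, and the DESeq2 Wald test called 0. The median log2 fold change was 0.25 for the members and -0.01 for all genes, and 25 of 32 members were above 0 against 49.2% of all genes. At an unadjusted p under 0.05 there were 2 members, JDP2 higher and PYCR1 lower, against 2.2% of all genes. The groups did not overlap for 5 members that were higher with TRPML3, namely CEBPB, DDIT3, JDP2, PSAT1 and SESN2, or 15.6% of the list against 3.02% of all genes, and for 1 that was lower, PYCR1, against 3.56% of all genes. All 8 transcription factors of the list had values above 0 here, with a median of 0.51, and the 5 amino acid enzymes had a median of 0.07. In fed cells the order was the reverse, with 6 of 8 factors above 0 and a median of 0.19, and 5 of 5 amino acid enzymes above 0 and a median of 0.33. The difference between roles was not tested. In both serum states, which share no library, 21 of the 32 members were above 0, against 25.7% of all genes.

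PYCR1, the enzyme of the last step of proline synthesis, had 77.9, 64.2 and 58.4 CPM in vector starved and 28.5, 52.1 and 29.1 CPM in TRPML3 starved libraries. All TRPML3 values were below all vector values, and replicates 1 and 3 were the lowest of the 12 libraries. The log2 fold change of PYCR1 was -0.87 ± 0.25 (SE, edgeR, unadjusted p = 0.00552, adjusted p = 1). ALDH18A1, which acts earlier in the same pathway, had 324, 332 and 282 CPM against 306, 294 and 317 CPM, a log2 fold change of -0.03 ± 0.15 (SE).

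DDIT3 was at 32.2, 28.5 and 25.8 CPM with vector and at 35.3, 41.4 and 44.3 CPM with TRPML3, so that all TRPML3 starved libraries were higher. The fed values of DDIT3, 40.5, 43.3 and 22.4 CPM with vector and 41.5, 42.5 and 33.8 CPM with TRPML3, overlapped. Its log2 fold change was 0.49 ± 0.26 (SE, edgeR, unadjusted p = 0.091, adjusted p = 1). ATF4 had 241, 243 and 459 CPM with vector and 363, 329.9 and 535 CPM with TRPML3. Each TRPML3 library exceeded the vector library of its number, yet vector replicate 3 was above TRPML3 replicates 1 and 2, and the log2 fold change was 0.38 ± 0.31 (SE, edgeR, unadjusted p = 0.243, adjusted p = 1). It was 0.13 without TRPML3 starved replicate 3 and 0.76 without vector starved replicate 3. PSAT1 had 445, 415 and 453 CPM against 532, 485 and 463 CPM, which did not overlap. The row named SESN2, a stress-induced inhibitor of mTORC1, had 26.7, 25.4 and 26.0 CPM against 38.0, 36.8 and 37.5 CPM. The spread of SESN2 within each of these groups was narrow, but the fit over all groups, which holds the library listed at 0, gave a log2 fold change of 0.53 ± 1.30 (SE).

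JDP2 was nearly absent from vector starved libraries, with 0, 0.401 and 0.113 CPM from 0, 15 and 5 counts, against 7.10, 6.71 and 1.07 CPM with TRPML3. Its log2 fold change of 4.85 ± 1.68 (SE, edgeR, unadjusted p = 0.0152, adjusted p = 1) rests on these few counts. In fed cells JDP2 had 12.9, 2.63 and 0.689 CPM with vector and 5.86, 0.182 and 13.3 CPM with TRPML3, a wide spread in both groups. KLHL24 had 29.1, 3.74 and 19.8 CPM against 22.0, 18.9 and 41.7 CPM, with vector replicate 2 far below the rest and a log2 fold change of 0.65 ± 0.73 (SE). PHGDH had 380.0, 308 and 276 CPM against 268, 317 and 303 CPM, and in fed cells 325, 293 and 278 CPM against 299, 324 and 351 CPM, with overlap in both states. GDF15 was at 0.539, 0.455 and 2.27 CPM against 0, 0.419 and 2.40 CPM, close to the floor in replicates 1 and 2. Its fed libraries had 0.577, 0.366 and 2.93 CPM with vector and 0.24, 0.287 and 1.86 CPM with TRPML3, with the same order of replicates.

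The stress markers CHAC1 and TRIB3 did not separate the starved groups. CHAC1 had 12.7, 11.9 and 7.34 CPM with vector and 14.3, 13.4 and 6.57 CPM with TRPML3. TRIB3 had 15.6, 7.09 and 2.59 CPM with vector and 18.9, 12.4 and 7.18 CPM with TRPML3, and both genes were lowest in replicate 3 of each group. ASNS was even across starved libraries, with 762, 747 and 889.7 CPM against 859, 843 and 823 CPM. ATF5 had 7.96, 9.17 and 15.1 CPM against 29.1, 8.95 and 10.9 CPM, with TRPML3 replicate 1 apart. PSPH had 3.89, 1.5 and 2.18 CPM against 3.36, 7.34 and 4.83 CPM. CTH had 7.97, 23.1 and 5.47 CPM in TRPML3 starved libraries, which overlapped with its vector starved values.

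**Figure D4:**
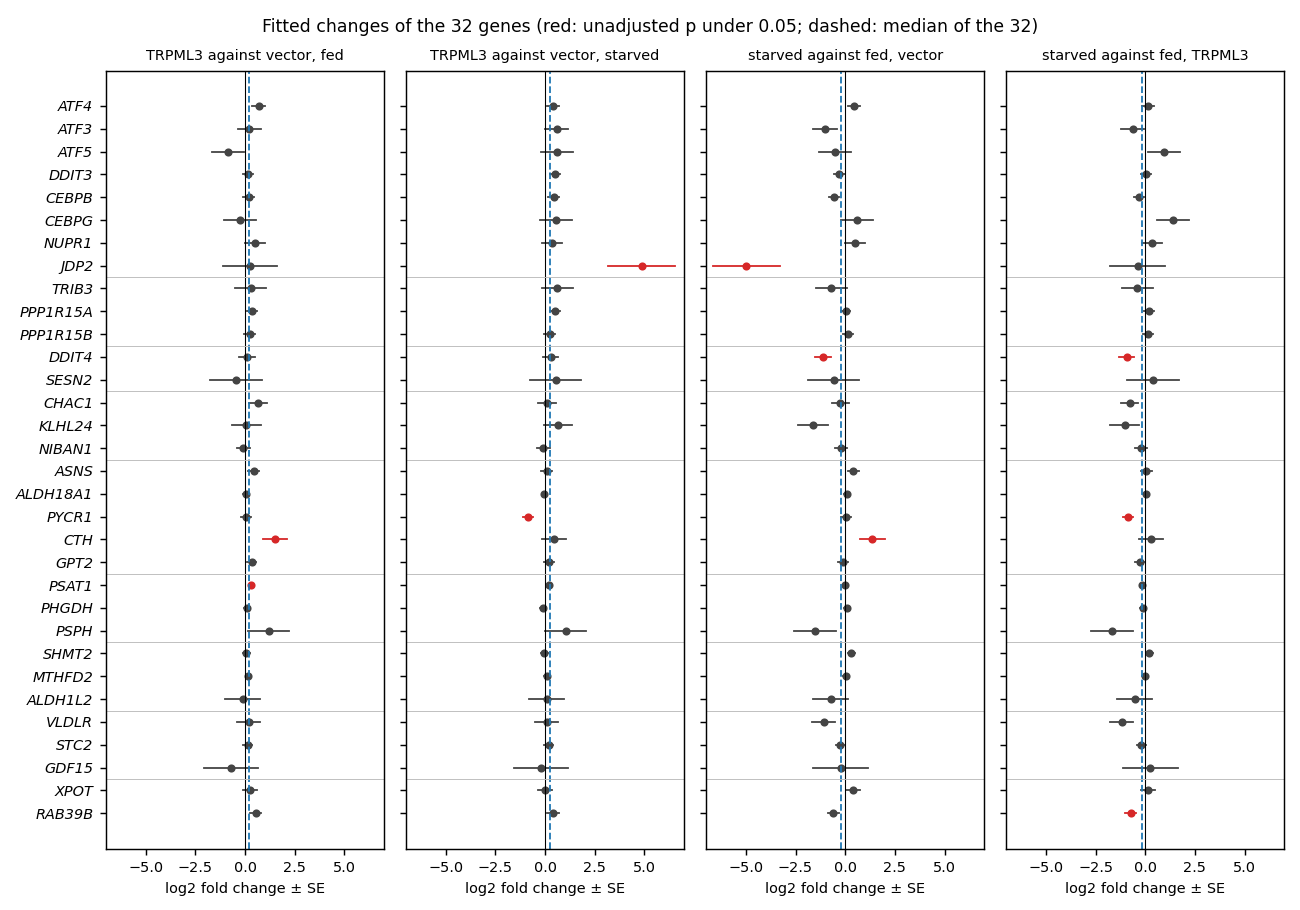
Log2 fold change with its SE (edgeR) for each of the 32 genes in the 4 comparisons of 2 groups, grouped by role; red marks an unadjusted p under 0.05 and the dashed line the median of the 32. Medians lie at 0.18 and 0.25 for TRPML3 and at -0.23 and -0.14 for starvation, and no gene passed an adjusted p of 0.05.

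Starved libraries were next compared with fed libraries of the same plasmid. In vector cells 0 members were called, against 0.00555% of all genes, and the DESeq2 Wald test called 0. The median log2 fold change was -0.23 for the members and -0.01 for all genes, and 19 of 32 members were below 0 against 50.6% of all genes. The members' median shrank to -0.10 in limma-trend on the authors' normalized values, to -0.12 for the 29 members with at least 10 counts in every library and to -0.04 without replicate 1. At an unadjusted p under 0.05 there were 3 members, DDIT4 and JDP2 lower and CTH higher, against 4.44% of all genes. The groups did not overlap for 2 higher members, CTH and SHMT2, against 5.36% of all genes, and for 2 lower ones, CEBPB and JDP2, against 4.57%.

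DDIT4, the mTORC1 inhibitor also known as REDD1, had 94.8, 81.7 and 33.9 CPM in vector fed and 35.0, 34.1 and 28.3 CPM in vector starved libraries. Fed replicates 1 and 2 were well above every starved library, whereas fed replicate 3 was at the starved level. The log2 fold change of DDIT4 was -1.11 ± 0.39 (SE, edgeR, unadjusted p = 0.0161, adjusted p = 1). ATF3, an immediate stress-responsive bZIP factor, was likewise higher in fed replicates 1 and 2, with 574, 435 and 72.4 CPM in fed and 183, 215 and 137 CPM in starved libraries, but fed replicate 3 was below every starved library. Because of fed replicate 3 the groups overlapped, and the log2 fold change of ATF3 was -1.02 ± 0.59 (SE, edgeR, unadjusted p = 0.112, adjusted p = 1). Without that library it was -1.5 (edgeR, unadjusted p = 0.00176, adjusted p = 0.498). In that fit 8.25% of all genes had an unadjusted p under 0.05. With TRPML3, ATF3 had 444, 560.2 and 240.1 CPM in fed and 193, 312 and 299 CPM in starved libraries, where fed replicate 3 lay among the starved values. CTH was higher in all starved libraries, with 4.70, 12.1 and 9.93 CPM against 3.84, 4.34 and 2.15 CPM, a log2 fold change of 1.37 ± 0.61 (SE, edgeR, unadjusted p = 0.0462, adjusted p = 1). ATF4 and NUPR1, a small chromatin-associated stress factor, had log2 fold changes of 0.44 ± 0.31 and 0.50 ± 0.51 (SE). That of ATF4 was 0.07 without vector starved replicate 3 and 0.67 without vector fed replicate 3. NUPR1 stood at 8.40, 5.44 and 15.3 CPM in fed and 11.7, 10.1 and 19.5 CPM in starved libraries, higher in each same-numbered pair but overlapping. With TRPML3 it had 12.4, 6.46 and 22.3 CPM in fed and 15.7, 13.4 and 23.0 CPM in starved libraries. CEBPG, the C/EBP partner of ATF4, had 70.4, 92.5 and 129 CPM in vector fed and 188, 227 and 28.5 CPM in vector starved libraries, where starved replicate 3 was below every fed library. VLDLR, a lipoprotein receptor that ATF4 is known to induce, had 24.0, 34.1 and 9.12 CPM in fed and 14.5, 10.9 and 6.42 CPM in starved libraries. RAB39B had 14.5, 13.4 and 10.2 CPM in vector starved libraries, of which replicate 1 exceeded vector fed replicate 3.

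In TRPML3 cells 0 members were called, as were 0 of all genes (0%), and the DESeq2 Wald test called 0 members. The median log2 fold change was -0.14 for the members and 0.01 for all genes, and 18 of 32 were below 0 against 48.8% of all genes. At an unadjusted p under 0.05 there were 3 members, all lower, namely DDIT4, PYCR1 and RAB39B, against 5.71% of all genes in either direction and 2.97% in that direction. The groups did not overlap for PYCR1 and RAB39B, both lower, against 5.66% of all genes, and for 0 higher members against 5.56%. In both plasmid groups, which share no library, 15 of the 32 members were below 0, against 31.8% of all genes.

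DDIT4 had 83.7, 97.8 and 43.1 CPM in TRPML3 fed and 31.98, 43.9 and 41.8 CPM in TRPML3 starved libraries. As with vector, fed replicate 3 was at the starved level, and the log2 fold change was -0.93 ± 0.39 (SE, edgeR, unadjusted p = 0.0356, adjusted p = 0.857). RAB39B went from 35.1, 24.0 and 24.5 CPM in fed to 18.4, 18.1 and 13.8 CPM in starved libraries, with no overlap and a log2 fold change of -0.73 ± 0.28 (SE, edgeR, unadjusted p = 0.0265, adjusted p = 0.847). PYCR1 had 64.4, 63.7 and 71.2 CPM in TRPML3 fed libraries, all above the TRPML3 starved values given before, with a log2 fold change of -0.86 ± 0.25 (SE, edgeR, unadjusted p = 0.00586, adjusted p = 0.812). VLDLR had 38.1, 28.0 and 10.2 CPM in fed and 14.5, 12.3 and 6.74 CPM in starved libraries, again with fed replicate 3 among the starved ones. ATF4 had a log2 fold change of 0.15 ± 0.31 (SE), which turned to -0.24 without replicate 3 in all groups. CEBPG was higher after starvation in replicates 1 and 2. It was at 61.1, 85.9 and 97.4 CPM in fed and at 301, 315 and 26.9 CPM in starved libraries, where replicate 3 was the lowest of all 12.

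Averaged over both plasmids, starvation gave 0 called members and 0 called genes (0%) in edgeR, with 7 members at an unadjusted p under 0.05, all lower, against 9.45% of all genes in either direction and 4.79% in that direction. These were DDIT4, RAB39B, VLDLR, KLHL24, JDP2, CEBPB and PYCR1. The DESeq2 Wald test called 2 members, DDIT4 (log2 fold change -1.03, adjusted p = 0.0344) and RAB39B (-0.67, adjusted p = 0.0465), where it called 287 of the 15863 genes it gave an adjusted p (1.81%). Without replicate 3 in all groups, edgeR called 4 members, CEBPG higher (log2 fold change 1.72, adjusted p = 0.0248) and DDIT4 (-1.29, adjusted p = 0.0259), ATF3 (-1.16, adjusted p = 0.0382) and VLDLR (-1.24, adjusted p = 0.0395) lower. In that fit 4.49% of all genes were called. Replicate 3 libraries also had the highest mitochondrial shares, 4.83 to 5.70%, and the part of this in the result was not tested.

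Averaged over both serum states, TRPML3 gave 0 called members against 0.0111% of all genes, and 0 in the DESeq2 Wald test. The median log2 fold change was 0.24 for the members and -0.01 for all genes, with 27 of 32 above 0 against 48.1% of all genes. At an unadjusted p under 0.05 there were 7 members, against 2.62% of all genes. ATF4 (0.53 ± 0.22 SE), PSAT1 (0.25 ± 0.09), PPP1R15A (0.43 ± 0.17), CTH (0.99 ± 0.43), RAB39B (0.47 ± 0.20) and JDP2 (2.55 ± 1.06) were higher, and PYCR1 (-0.42 ± 0.18) was lower, all with an adjusted p of 1.00. PPP1R15A encodes GADD34, the inducible phosphatase subunit that reverses eIF2 phosphorylation. It had 286, 260 and 169 CPM in vector fed, 230.1, 228 and 266 CPM in vector starved, 277, 327 and 308 CPM in TRPML3 fed and 261, 304 and 465 CPM in TRPML3 starved libraries. PPP1R15A values overlapped between plasmids in both serum states, with TRPML3 starved replicate 3 the highest. Between 2 and 5 members were at this level when a single library was left out, 1 without replicate 1 in all groups, and 2 with library-size scaling.

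The interaction asked whether the starvation response differed between plasmids. It gave 0 called members and 0 called genes (0%), and 0 members in the DESeq2 Wald test, against 0.15% of all genes. The median over the members was -0.04, and 1 member, PYCR1, had an unadjusted p under 0.05 (log2 interaction -0.91 ± 0.35 SE, edgeR, unadjusted p = 0.0266, adjusted p = 1), against 2.07% of all genes. PYCR1 differed little between fed and starved vector libraries (73.6, 61.0 and 59.7 against 77.9, 64.2 and 58.4 CPM) and was lower in starved TRPML3 libraries. The MCOLN3 level also differed between TRPML3 fed and TRPML3 starved libraries, and its part was not tested. With starved replicates as given above, the interaction of ATF4 was -0.30 ± 0.43 (SE) and that of DDIT3 0.34 ± 0.37 (SE).

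The median of the members per library summarised these patterns. As log2 CPM minus each gene's mean over the 12 libraries, it was 0.07, 0.01 and -0.13 in vector fed replicates 1, 2 and 3, and 0.26, 0.13 and 0.18 in TRPML3 fed replicates 1, 2 and 3. In vector starved libraries it was -0.09, -0.17 and -0.29, and in TRPML3 starved libraries 0.16, 0.08 and -0.03. The TRPML3 medians lay above the vector medians in both serum states without overlap. Of the 32 members, 9 had their highest value in TRPML3 fed replicate 1. Over all genes tested the same median stayed between 0.03 and 0.08. Between same-numbered libraries, the median TRPML3 difference over the members was 0.13, 0.09 and 0.31 for fed and 0.21, 0.25 and 0.20 for starved replicates 1, 2 and 3, with 19 to 26 of 32 members higher. Since members share libraries and some are regulated together, they are not independent measurements of a response.

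**Figure D5:**
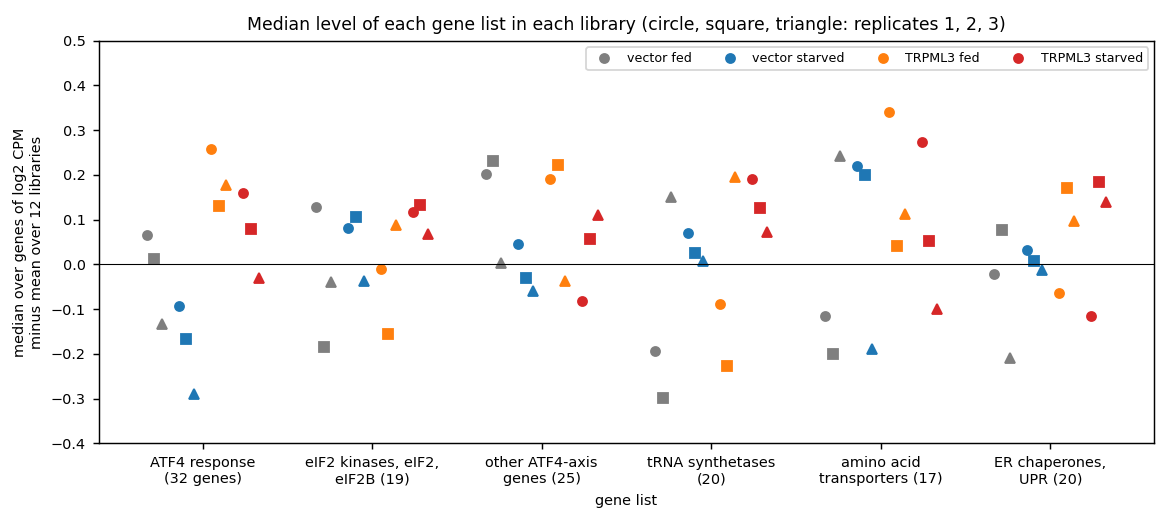
Median over the genes of 6 lists of log2 CPM minus the gene's mean over 12 libraries, 1 point per library, coloured by group and shaped by replicate. For the 32 ATF4-linked genes the TRPML3 fed libraries (0.13 to 0.26) lie above the vector fed ones (-0.13 to 0.07), and the TRPML3 starved (-0.03 to 0.16) above the vector starved ones (-0.29 to -0.09).

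The remaining members, described to account for the whole list and chosen with their values in view, showed smaller or less regular differences. SHMT2, the mitochondrial serine hydroxymethyltransferase, had 171, 143 and 167 CPM in vector fed and 204, 180.3 and 207 CPM in vector starved libraries, which did not overlap. With TRPML3 it had 141, 169.6 and 191 CPM in fed and 214, 206 and 153 CPM in starved libraries, which did. CEBPB, a C/EBP factor of the same network, had 13.6, 9.91 and 8.84 CPM in vector fed and 8.52, 6.12 and 7.25 CPM in vector starved libraries, without overlap. STC2, a secreted glycoprotein, was lowest in replicate 3 of every group, with 205, 226 and 168 CPM in vector fed and 242, 235 and 176 CPM in TRPML3 fed libraries. PPP1R15B, the constitutive counterpart of PPP1R15A, had 239.8, 292 and 409.8 CPM in TRPML3 starved libraries, the last being the highest of the 12. ALDH1L2 stood apart in 1 library, with 67.3, 2.52 and 47.3 CPM in TRPML3 starved libraries. XPOT, the nuclear export receptor of tRNA, had 260.1, 116 and 149 CPM in the same group, GPT2, an alanine aminotransferase, 94.6, 67.8 and 80.2 CPM, and NIBAN1, a stress-induced protein, 16.4, 8.42 and 13.8 CPM, and all 3 genes overlapped with vector starved libraries. MTHFD2, at 529.7, 591 and 534 CPM in vector fed and 596, 588 and 664 CPM in TRPML3 fed libraries, varied least of all members.

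Genes upstream of ATF4 were followed as a list of 19 eIF2 kinases, eIF2 and eIF2B subunits and their regulators, all tested. None was called in any of the 7 comparisons. With TRPML3 in fed cells, 11 of 19 were above 0, with a median log2 fold change of 0.01. The fed groups did not overlap for 2 lower genes of the list, against 3.87% of all genes, and for 1 higher gene, against 3.22%. An unadjusted p under 0.05 (edgeR) was found for 2 of the 19, against 2.21% of all genes. At an unadjusted p under 0.05, EIF2AK1, the heme-regulated eIF2 kinase, was lower (-1.48 ± 0.34 SE, edgeR, unadjusted p = 0.00115, adjusted p = 1) and IMPACT, an inhibitor of the amino acid sensing kinase GCN2, was higher (1.08 ± 0.27 SE, unadjusted p = 0.00218, adjusted p = 1). EIF2AK1 had 259, 202 and 247 CPM in vector fed and 83.0, 89.0 and 82.3 CPM in TRPML3 fed libraries, a tight and separate group. In starved cells it had 283, 200.1 and 160.4 CPM with vector and 232, 275 and 99.3 CPM with TRPML3, which overlapped. Its interaction was 1.39 ± 0.47 (SE, edgeR, unadjusted p = 0.013, adjusted p = 1). IMPACT stood at 35.1, 22.3 and 32.7 CPM in vector fed and 53.7, 56.7 and 79.9 CPM in TRPML3 fed libraries, and at 55.7, 48.1 and 59.5 CPM in vector starved and 75.02, 73.7 and 45.5 CPM in TRPML3 starved libraries. For starvation in vector cells IMPACT (0.86 ± 0.27 SE) and EIF2B2 (0.48 ± 0.17 SE) were higher at this unadjusted level, against 4.44% of all genes in either direction. For starvation in TRPML3 cells EIF2AK1 (1.25 ± 0.33 SE) was higher at this level, against 5.71% of all genes. Starved libraries were all above fed ones for 4 of the 19 with vector and 3 with TRPML3, against 5.36 and 5.56% of all genes. They were all below for 1 and 0 of the 19, against 4.57 and 5.66%. For starvation averaged over plasmids, 4 of the 19 were at the unadjusted level, all higher, against 9.45% of all genes in either direction. The kinases of the endoplasmic reticulum and amino acid arms, EIF2AK3 (PERK) and EIF2AK4 (GCN2), are named for their role only and did not reach that unadjusted level in any comparison. EIF2AK3 ranged from 13.8 to 86.7 CPM and EIF2AK4 from 2.96 to 128 CPM over the 12 libraries.

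A further 26 genes linked to the ATF4 axis, not all of them ATF4 targets, were followed, of which 25 were tested. Their medians were 0.10 and 0.13 for TRPML3 in fed and starved cells. For starvation the medians were -0.25 and -0.06 in vector and TRPML3 cells, and none of these genes was called. With TRPML3 in starved cells 2 of the 25 had an unadjusted p under 0.05 (edgeR), against 2.2% of all genes. These were ERO1A (-6.01 ± 1.98 SE, unadjusted p = 0.0116) and NFE2L1 (-0.88 ± 0.30 SE, unadjusted p = 0.0143, adjusted p = 1), both lower. SQSTM1, the autophagy receptor p62, was higher with starvation in vector cells (0.94 ± 0.42 SE, unadjusted p = 0.0454, adjusted p = 1.00), and is named after its values were seen. In that comparison 1 of the 25 was at this level, against 4.44% of all genes. With starvation in TRPML3 cells 2 were at this level, both lower, against 5.71% of all genes. They were ERO1A (-7.07 ± 2.07 SE, unadjusted p = 0.00603, adjusted p = 0.812) and BBC3, a BH3-only apoptosis gene (-0.74 ± 0.27 SE, unadjusted p = 0.0201, adjusted p = 0.834). ERO1A switched between 0.818 to 4.70 CPM in 6 libraries and 96.1 to 235 CPM in the other libraries, with both states among the replicates of every group but TRPML3 starved, where all 3 were low.

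Closest to the members are amino acid transporters, tRNA synthetases and genes of the endoplasmic reticulum stress response. For TRPML3 in fed and then starved cells the medians were 0.30 and 0.01 for 17 transporter genes, 0.07 and 0.06 for 20 cytosolic tRNA synthetase genes and 0.13 and 0.19 for 20 chaperone and unfolded protein response genes, beside 0.18 and 0.25 for the 32 members. For starvation in vector and then TRPML3 cells they were 0.10 and 0.0026, 0.14 and 0.20, and -0.05 and -0.00017, beside -0.23 and -0.14. TARS1, the threonyl-tRNA synthetase, was higher at an unadjusted p under 0.05 for TRPML3 in fed cells (0.47 ± 0.19 SE, edgeR, unadjusted p = 0.0293, adjusted p = 1) and for starvation in vector cells (0.82 ± 0.19 SE, unadjusted p = 0.00125, adjusted p = 1.00). SLC3A2, the heavy chain of several amino acid exchangers, was higher for starvation in vector cells (0.46 ± 0.20 SE, unadjusted p = 0.039, adjusted p = 1.00). PDIA3, a protein disulfide isomerase, was higher for TRPML3 in fed cells (0.55 ± 0.24 SE, unadjusted p = 0.0459, adjusted p = 1). With TRPML3 in fed cells, the genes above 0 were 13 of 17, 14 of 20 and 14 of 20 in the order of these lists. In starved cells they were 9, 12 and 16, beside 26 and 25 of the 32 members in fed and starved cells. No gene of these 3 lists was called by edgeR in the 7 comparisons, and the differences between lists were not tested.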

How the data were processed

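Polyadenylated RNA of 12 HEK293T libraries was sequenced, 3 biological replicates in each of 4 groups taken from the labels. The deposited table holds raw counts for 41878 gene rows, which were used for all tests. A second deposited table gives a normalized signal for 23252 rows, which equals the count divided by a size factor of 0.8513 to 1.216 per library and was used for an alternative only. The submitters' processing notes name GRCh38, FastQC, fastp, HISAT2, StringTie and DESeq2. The annotation, the use of strand and the treatment of reads with several matches are not given in the sources used here.

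Counts were tested with edgeR 4.0.16 in R 4.3.3 (TMM scaling, filterByExpr, robust quasi-likelihood fit, 1 coefficient per group, 8 residual degrees of freedom), with Benjamini-Hochberg adjustment over 18030 genes and a threshold of 0.05. The test was checked on simulated counts whose spread between replicates was set smaller than in these data. That check therefore does not show how many changes the test would miss here. SE is the absolute log2 fold change divided by the square root of F. Log2 CPM used a prior count of 2. Between replicates, the biological coefficient of variation fitted to all genes was 0.527, with a median of 0.336 for the members. The floor of 3 counts covers counting error only. Alternatives were DESeq2 1.42.0, limma 3.58.1 on log2 of the normalized value + 1, library-size scaling, a filter of at least 10 counts in every library, a replicate block and leaving out libraries.

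Deviations of same-numbered libraries correlated at 0.11, 0.15 and 0.33 across genes for replicates 1, 2 and 3 between the fed groups. This passed the rule for pairing (over 0.1 for each), whereas the starved groups (0.13, 0.09 and 0.32) and the comparisons between serum states (-0.08 to 0.01) did not. The members and all lists were chosen with earlier results of these data known. By rule, values in every library are given for 8 set members (ATF4, DDIT3, ATF3, CHAC1, TRIB3, DDIT4, SESN2 and ASNS), for members at an unadjusted p under 0.05 in a comparison of 2 groups, and for the 3 largest and 3 smallest log2 fold changes of each such comparison among members with at least 1 CPM in a group, 21 members in all. The other 11 are given by counts, ranges or examples. Of the other lists, at most 4 genes per comparison were named, by smallest p.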

Additional observations from a re-analysis of the deposited data

How the results depend on the processing

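No member was called by edgeR in any of the 7 comparisons with all libraries, with library-size scaling, with the stricter count filter, with limma-trend or with a replicate block. For starvation averaged over plasmids, the DESeq2 Wald test called 2 members and 1.81% of all genes with an adjusted p. Leaving out libraries gave 0 to 4 called members, the 4 being without replicate 3 in all groups, where 4.49% of all genes were called. In the other 6 comparisons leaving out libraries gave 0 to 0 called members. With the replicate block, members at an unadjusted p under 0.05 numbered 5, 2, 7 and 5 for TRPML3 in fed cells, TRPML3 in starved cells, starvation in vector cells and starvation in TRPML3 cells, against 2, 2, 3 and 3 without it. The shares of all genes were 2.61, 2.47, 5.06 and 6.64% with the block and 2.21, 2.2, 4.44 and 5.71% without it. Only the first of these comparisons met the rule for pairing, and the block changed no call.

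The median log2 fold change of the members when libraries were left out ran from 0.11 to 0.28 for TRPML3 in fed cells, 0.19 to 0.30 in starved cells and 0.17 to 0.29 averaged. It ran from -0.23 to -0.038 for starvation in vector cells, -0.25 to -0.066 in TRPML3 cells, -0.20 to -0.10 averaged, and -0.10 to 0.080 for the interaction. Scaling by library size alone gave a median of 0.15 for TRPML3 in starved cells, where the median of all genes moved by -0.10. For starvation in vector cells the median was -0.12 with at least 10 counts in every library and -0.10 with limma-trend. The cause was not tested. The log2 fold change of ATF4 for starvation in TRPML3 cells, 0.15 with all libraries, was -0.01 when TRPML3 fed replicate 3 was left out, -0.10 when TRPML3 starved replicate 3 was, and -0.24 without replicate 3 in all groups, the lowest value, while the highest was 0.42 without replicate 2. In the comparisons of 2 groups the median SE of a member's log2 fold change was 0.33.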

Other observations

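For several members replicate 3 was the highest or lowest library of every group, a pattern chosen after their values were seen and not tested. Replicate 3 was the highest throughout for GDF15 and NUPR1, whereas for CEBPG the order differed between fed and starved groups. GDF15 had 1.86 CPM or more in the replicate 3 library of all 4 groups and at most 0.577 CPM in the 8 libraries of replicates 1 and 2. NUPR1 was highest in replicate 3 within every group, at 15.3, 19.5, 22.3 and 23.0 CPM in vector fed, vector starved, TRPML3 fed and TRPML3 starved cells. CEBPG was at 28.5 and 26.9 CPM in replicate 3 of the starved groups, against 188, 227, 301 and 315 CPM in the other starved libraries, while its fed libraries lay between 61.1 and 129 CPM with replicate 3 highest in both groups. The mitochondrial share of counts was 4.83 to 5.70% in replicate 3 libraries and 1.05 to 4.40% in the others, and its part in these values was not tested.

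Split by the promoter letters, the 6 genes with TGATGNAAN had a median log2 fold change of 0.24 for TRPML3 in fed cells and 0.38 in starved cells, with 5 and 6 of them above 0. The 19 genes without the letters in the window had 0.15 and 0.27, with 15 and 14 above 0, and the 7 genes with no window had 0.33 and 0.19, with 6 and 5 above 0. For starvation the medians of the genes with the letters, without them and with no window were -0.05, -0.23 and -0.12 in vector cells and -0.16, -0.03 and -0.54 in TRPML3 cells. No test was made of how these sets of genes differ.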
